A study of Mus musculus with 6 samples.

Results

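The 38 genes described here serve amino acid uptake, the synthesis of serine, glycine and other amino acids, folate one-carbon metabolism, polyamines, the methionine cycle and the building of purines and pyrimidines. They were chosen by name as a metabolic module, and each was read from the array probe whose RefSeq accession carries that gene's symbol. A probe was found for 36 of the 38, and Pycr1 and Amd1 had none. Of the 44781 genes with a probe, 8582 were bright, meaning a mean log2 intensity of at least 8 over the 6 arrays, and 28 of the 38 genes were among them. The other 8 with a probe were dim and are given as unscaled intensities. The module holds more than synthesis. Transporters are encoded by 7 of the genes, such as Slc7a5 and Slc38a2, and Gcat and Tdh act in the breakdown of threonine, which yields glycine.

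T cells that have met antigen import amino acids and switch on serine, glycine and folate metabolism to make nucleotides and methyl donors for division. The carbon unit that folate carries comes largely from serine, through the serine hydroxymethyltransferases, and is passed on to purine rings and to thymidylate. Polyamines, made from ornithine and from decarboxylated S-adenosylmethionine, bind nucleic acids and are needed for growth. T cell receptor signals switch on Irf4, a transcription factor. PD-L1 and CTLA-4 belong to inhibitory checkpoint pathways that restrain T cells.

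The cells were TEa T cells, CD4+ T cells with a transgenic receptor (Vα2+Vβ6+), carrying the CD45.2 marker on a C57BL/6 background. In each group they were transferred on day -1 into B6.SJL CD45.1+ mice. A Balb/c heart was transplanted on day 0, and the donor cells were sorted from the spleen on day 6. The blockade group held Irf4-/- cells (Irf4 KO) from recipients given 200 µg anti-PD-L1 and 200 µg anti-CTLA-4 on days 0, 3 and 5. The KO IgG group held Irf4-/- cells from recipients given 400 µg rat IgG on the same days. The WT group held wild-type cells from recipients labelled as treated with rat IgG, with no dose stated. Each group had 2 arrays, which the design gives as independent experiments and the labels as an array and its repeat. The recipients kept their own Irf4, since only the transferred cells carried the deletion. The labels do not say how many mice went into an array, and the number of arrays limits the precision.

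All 6 arrays lay on 1 slide and were read in 1 scan, and no spot was saturated. The arrays differed in their dim probes: 40.0% and 34.8% of probes were well above background on the blockade arrays, 65.8% and 75.2% on the KO IgG arrays, and 37.6% and 40.8% on the WT arrays. For that reason the bright genes were normalised among themselves, and a change below is relative to the other bright genes. All 9 T cell markers with a probe, among them Cd3e, Cd4 and Lck, were well above background on every array. The unscaled sums of B cell and of myeloid markers were highest on the KO IgG arrays, and that of erythroid markers on 1 of them. The summed intensity of 8 B cell markers was 568 and 624 on the blockade arrays, 2261 and 11589 on the KO IgG arrays, and 366 and 385 on the WT arrays. All 8 were well above background on both KO IgG arrays, and 3 or 4 on each other array. The 5 erythroid and platelet markers summed to 9304 and 5785 on the blockade arrays, 1220 and 45104 on the KO IgG arrays, and 145 and 629 on the WT arrays. The 10 myeloid markers summed to between 10960 and 11769 on the blockade arrays, between 23399 and 76259 on the KO IgG arrays, and between 10513 and 17189 on the WT arrays. On KO IgG array 2, S100a9 read 44805 and S100a8 15377. Csf3r, Itgam and Csf1r each read higher on a WT array than on KO IgG array 2. The rest read higher on both KO IgG arrays than on either WT array. In sorted cells taken as a bulk, fewer cells of a type and less RNA per cell cannot be told apart. Irf4 itself had log2 levels higher by 1.43 in KO IgG than in WT cells (SE 0.128, limma adjusted p = 0.0175) and by 1.41 in blockade than in WT cells (adjusted p = 0.0167). In the fit of all genes above background, scaled to each array's 75th percentile, the Irf4 call for KO IgG over WT did not remain (0.39, adjusted p = 0.208). Blockade over WT stood at 1.497 there (adjusted p = 0.255). That fit called 0 of its 28249 genes for blockade against WT, so it cannot decide the second call. Where its probes lie relative to the deleted part is not given in the sources used here, so the genotype rests on the labels.

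The promoters of the members were read first for sequence they share. RefSeq windows of 300 bases around the transcript start (GRCm38.p6) were held for 33 of the 38 genes. The E-box CACGTG, searched on both strands, was in the windows of 5 of these 33 genes (15.2%), Aldh18a1, Atic, Gcat, Paics and Sms, and in those of 8.09% of the 27025 genes in the table. The element TGATGNAA, which factors of the amino acid stress response are known to bind, was in the windows of 3 of the 33 (9.09%), Asns, Got1 and Pycr1, and in those of 4.51% of all genes. The windows of Gcat, the bright member with the largest change, and of Got1 and Asns, which carry the second element and have a probe, follow with the matched letters in capitals and the rest in lower case.
Gcat: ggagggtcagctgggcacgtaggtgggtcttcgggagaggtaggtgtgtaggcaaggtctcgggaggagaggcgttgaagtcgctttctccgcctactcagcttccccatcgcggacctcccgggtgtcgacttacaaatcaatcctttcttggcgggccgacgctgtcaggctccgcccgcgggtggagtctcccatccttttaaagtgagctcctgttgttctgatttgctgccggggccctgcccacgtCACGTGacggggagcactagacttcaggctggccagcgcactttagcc
Got1: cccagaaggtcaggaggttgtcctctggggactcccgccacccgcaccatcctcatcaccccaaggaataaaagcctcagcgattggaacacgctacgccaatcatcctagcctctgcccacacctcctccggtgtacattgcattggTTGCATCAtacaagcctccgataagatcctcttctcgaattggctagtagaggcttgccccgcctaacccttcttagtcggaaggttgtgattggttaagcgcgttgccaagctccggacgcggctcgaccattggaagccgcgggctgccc
Asns: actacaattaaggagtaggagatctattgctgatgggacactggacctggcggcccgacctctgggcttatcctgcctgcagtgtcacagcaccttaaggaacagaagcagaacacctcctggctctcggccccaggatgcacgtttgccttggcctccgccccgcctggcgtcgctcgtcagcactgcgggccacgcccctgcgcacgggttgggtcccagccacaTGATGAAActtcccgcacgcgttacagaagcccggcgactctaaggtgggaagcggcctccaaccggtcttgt
The Gcat window lies at chr15:79030624-79030923 on the plus strand, with the E-box at base 3 after the start. The Got1 window lies at chr19:43524556-43524855 on the minus strand, with the element on the opposite strand at -102, and the Asns window at chr6:7693160-7693459 on the minus strand, with the element at -23. A match describes the letters only, and no binding was measured.

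Gcat, 2-amino-3-ketobutyrate coenzyme A ligase, which makes glycine in the breakdown of threonine, changed in both comparisons that involve KO IgG cells. Its normalised log2 levels were 8.82 and 9.15 on the blockade arrays, 7.17 and 6.95 on the KO IgG arrays, and 8.89 and 8.69 on the WT arrays. Both KO IgG arrays lay below all 4 others, while the blockade and WT arrays overlapped. Gcat was lower in KO IgG than in WT cells by 3.32-fold (log2 change -1.73, SE 0.166, limma adjusted p = 0.0181). It was higher in blockade than in KO IgG cells by 3.80-fold (log2 change 1.92, SE 0.166, adjusted p = 0.0342). Between blockade and WT cells the log2 change was 0.19 (95% interval -0.22 to 0.61, adjusted p = 0.571). Before scaling, the Gcat probe read 413 and 393 on the blockade arrays, 158 and 267 on the KO IgG arrays, and 404 and 482 on the WT arrays. Its mean log2 of 8.37 was near the minimum of 8, an intensity of 256, and KO IgG array 1 read below that. The size of the change moved with the scaling. With bright-gene medians it was -1.31 for KO IgG over WT and 1.51 for blockade over KO IgG. A second Gcat probe was dim and ran the other way, with 5.30 and 4.37 on the blockade arrays, 18.7 and 95 on the KO IgG arrays, and 4.36 and 3.77 on the WT arrays.

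Within each row of the slide, which held 1 array of every group, the Gcat difference between KO IgG and WT cells was -1.75 and -1.71, and that between blockade and KO IgG cells was 1.88 and 1.97. With the row as a block the adjusted p was 0.0294 for the first comparison, where 1.03% of bright genes were called. It was 0.0531 for the second, where 0% were called. With the replicate number as a block it was 0.0520 (0.268% of bright genes called) and 0.0485 (0.35% called). Without the KO IgG array with the most B cell and erythroid signal, Gcat stood at -1.68 against WT and at 1.88 for blockade over KO IgG. Both calls were lost when either WT array or either blockade array was left out. For KO IgG over WT the log2 change was then -1.58 and -1.76 without WT arrays 1 and 2. It was -1.78 and -1.69 without blockade arrays 1 and 2. For blockade over KO IgG it was 1.87 and 1.86 without the WT arrays, and 2.14 and 1.72 without the blockade arrays. Each such fit leaves 1 array in a group, so a lost call cannot be told from lost precision.

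**Figure D1:**
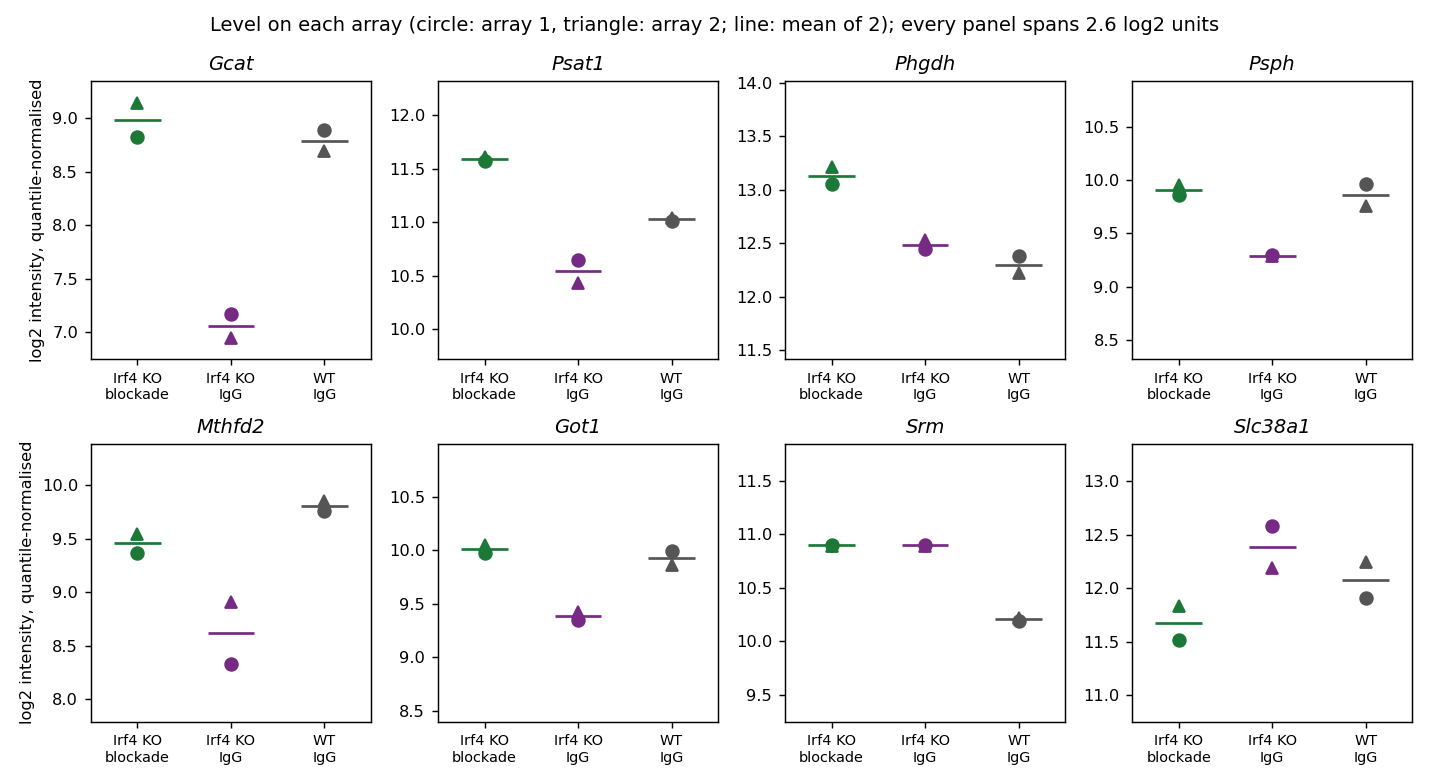
Normalised log2 intensity (vertical axis, every panel spanning the same number of log2 units) of 8 members on each array, with circles for array 1, triangles for array 2 and a line at the mean. Gcat was near 7 on both KO IgG arrays and between 8.69 and 9.15 on the other 4, and Srm was near 10.9 on the 4 arrays labelled Irf4 KO and stood at 10.19 and 10.22 on the WT arrays.

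The 3 enzymes that make serine from a glycolytic intermediate did not pass the test in any comparison. Psat1, the phosphoserine aminotransferase, had log2 levels of 11.58 and 11.61 on the blockade arrays, 10.65 and 10.43 on the KO IgG arrays, and 11.01 and 11.04 on the WT arrays. On this probe the groups did not overlap, with blockade highest and KO IgG lowest. The log2 change of Psat1 was 1.06 for blockade over KO IgG (SE 0.124, adjusted p = 0.0520), -0.49 for KO IgG over WT (adjusted p = 0.107) and 0.57 for blockade over WT (adjusted p = 0.105). A second Psat1 probe was dim, and before scaling its KO IgG arrays overlapped both other groups. It read 195 and 134 on the blockade arrays, 126 and 258 on the KO IgG arrays, and 81.4 and 128 on the WT arrays. Phgdh, which commits carbon to serine, had 13.05 and 13.22 on the blockade arrays, 12.45 and 12.53 on the KO IgG arrays, and 12.38 and 12.22 on the WT arrays. Blockade arrays lay above all others for Phgdh, with log2 changes of 0.65 over KO IgG (adjusted p = 0.0721) and 0.83 over WT (adjusted p = 0.0580). Psph, the phosphatase of the last step, had 9.86 and 9.95 on the blockade arrays, 9.30 and 9.29 on the KO IgG arrays, and 9.96 and 9.76 on the WT arrays. KO IgG was the low group for Psph, with log2 changes of -0.57 against WT (adjusted p = 0.0819) and 0.62 for blockade over KO IgG (adjusted p = 0.0726).

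Among the folate enzymes, Mthfd2, the mitochondrial dehydrogenase and cyclohydrolase, had log2 levels of 9.37 and 9.55 on the blockade arrays, 8.33 and 8.91 on the KO IgG arrays, and 9.76 and 9.85 on the WT arrays. Here too KO IgG was lowest, with a log2 change of -1.19 against WT (SE 0.210, adjusted p = 0.0595), while blockade over KO IgG was 0.84 (adjusted p = 0.0844) and blockade over WT was -0.35 (adjusted p = 0.430). Shmt2, the mitochondrial serine hydroxymethyltransferase, had log2 changes of 0.28, 0.30 and 0.58 for KO IgG over WT, blockade over KO IgG and blockade over WT, none past the threshold. Mthfd1, the cytosolic trifunctional enzyme, cannot be given a direction for KO IgG over WT or blockade over KO IgG, where its probes disagree. Its brighter probe changed by -0.40, 0.62 and 0.22 for KO IgG over WT, blockade over KO IgG and blockade over WT. Its second bright probe changed by 0.48, -0.03 and 0.46 when quantiles were taken over all bright probes. Over the 7 bright genes of the serine, glycine and folate group, the median log2 change was -0.49 for KO IgG over WT, with 2 above 0 and 5 below. It was 0.65 for blockade over KO IgG, with 7 of 7 above 0, and 0.22 for blockade over WT, with 6 above 0. These medians and counts take Mthfd1 by its brighter probe, and its second was at -0.03 for blockade over KO IgG. They leave out the 3 dim genes of the group, Shmt1, Mthfd1l and Tdh, which are given below. Over all bright genes these medians were -0.02, 0.03 and 0.00, and 53.0% of bright genes were above 0 for blockade over KO IgG. Gcat was the only member of the group that passed in any comparison.

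Of the enzymes around glutamate, Got1, the cytosolic aspartate aminotransferase, had log2 levels of 9.97 and 10.04 on the blockade arrays, 9.35 and 9.42 on the KO IgG arrays, and 9.996 and 9.86 on the WT arrays. Its log2 change was -0.55 for KO IgG over WT (SE 0.116, adjusted p = 0.0785) and 0.63 for blockade over KO IgG (adjusted p = 0.0709), with the KO IgG arrays below all others. A second Got1 probe, dim, ran the other way before scaling, with 132 and 98.2 on the blockade arrays, 322 and 562 on the KO IgG arrays, and 188 and 117 on the WT arrays. Bcat2, the mitochondrial branched-chain aminotransferase and, with a mean log2 of 8.14, the member just above the brightness minimum, had 8.26 and 8.34 on the blockade arrays, 7.73 and 7.996 on the KO IgG arrays, and 8.24 and 8.20 on the WT arrays. Got2, the mitochondrial aspartate aminotransferase, had 11.47 and 11.54 on the blockade arrays, 11.02 and 11.29 on the KO IgG arrays, and 11.27 and 11.23 on the WT arrays. For both, blockade lay above KO IgG on every array, and neither passed, with adjusted p of 0.114 for Bcat2 and 0.157 for Got2 in that comparison. A second Bcat2 probe, dim, ran the other way before scaling. It read 12.7 and 4.46 on the blockade arrays, 112 and 290 on the KO IgG arrays, and 7.84 and 19.2 on the WT arrays. Glutamine synthetase (Glul), glutamate dehydrogenase (Glud1) and Aldh18a1, which starts proline synthesis, changed by between -0.34 and 0.26 in the 3 comparisons, and none passed. The 6 bright genes of this group had median log2 changes of -0.22, 0.31 and 0.08 for KO IgG over WT, blockade over KO IgG and blockade over WT.

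Srm, spermidine synthase, rose in KO IgG cells relative to the other bright genes, but stood at -0.36 (adjusted p = 0.207) when scaled to the 75th percentile of each whole array, where the median bright gene stood at -1.05. Its log2 levels were 10.90 and 10.89 on the blockade arrays, 10.90 and 10.89 on the KO IgG arrays, and 10.19 and 10.22 on the WT arrays. Both groups labelled Irf4 KO stood above both WT arrays. The log2 change was 0.69 for KO IgG over WT (1.61-fold, SE 0.105, limma adjusted p = 0.0471) and 0.69 for blockade over WT (1.61-fold, adjusted p = 0.0580), so the second did not pass. Between blockade and KO IgG cells it was 0.00 (95% interval -0.26 to 0.26, adjusted p = 0.996). The 2 other Srm probes, both bright, gave 0.54 and 0.60 for KO IgG over WT when quantiles were taken over all bright probes. The Srm call was lost when any single array was left out, with log2 changes between 0.67 and 0.71. Each such fit leaves 1 array in a group, so a lost call cannot be told from lost precision. It was also lost with the slide row as a block (adjusted p = 0.0683, 1.03% of bright genes called). With the replicate number as a block it was lost too (adjusted p = 0.105, 0.268% called). Within the rows the Srm difference was 0.67 and 0.71.

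The other bright polyamine genes did not pass in any comparison. Odc1, ornithine decarboxylase, which starts the pathway, had log2 levels of 11.61 and 11.05 on the blockade arrays, 10.70 and 11.17 on the KO IgG arrays, and 11.14 and 11.04 on the WT arrays. The Odc1 levels overlapped between all groups, and the largest log2 change was 0.40 for blockade over KO IgG (adjusted p = 0.322). Sms, spermine synthase, had 10.66 and 10.48 on the blockade arrays, 9.93 and 10.17 on the KO IgG arrays, and 10.14 and 9.80 on the WT arrays. Blockade lay above both others for Sms, by 0.52 over KO IgG (adjusted p = 0.123) and 0.60 over WT (adjusted p = 0.153). Of its other bright probes, 1 gave 0.17 and 0.11 in those comparisons and 1 gave 0.63 and 0.66, with quantiles taken over all bright probes. Mat2a, which makes S-adenosylmethionine and was the only bright gene of the methionine cycle in the module, changed by -0.05, -0.13 and -0.18.

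None of the 5 bright transporters passed. Slc38a2, a sodium-coupled carrier of small neutral amino acids, had log2 levels of 9.67 and 9.79 on the blockade arrays, 9.98 and 9.60 on the KO IgG arrays, and 9.03 and 9.15 on the WT arrays. The arrays labelled Irf4 KO lay above WT for Slc38a2, by 0.70 for KO IgG (SE 0.162, adjusted p = 0.0898) and 0.64 for blockade (adjusted p = 0.134). Scaled to the 75th percentile, Slc38a2 stood at -0.22 for KO IgG over WT (adjusted p = 0.507). Slc38a1, its close relative, had 11.52 and 11.84 on the blockade arrays, 12.59 and 12.19 on the KO IgG arrays, and 11.91 and 12.25 on the WT arrays. The log2 change of Slc38a1 for blockade over KO IgG was -0.71 (adjusted p = 0.108). Slc7a1, a carrier of arginine and lysine, had 9.73 and 9.56 on the blockade arrays, 10.10 and 10.15 on the KO IgG arrays, and 9.92 and 10.30 on the WT arrays. The blockade arrays were lowest for Slc7a1 (-0.48 against KO IgG, adjusted p = 0.130). Slc1a5, a glutamine carrier, changed by -0.02, -0.24 and -0.25 for KO IgG over WT, blockade over KO IgG and blockade over WT. Slc3a2, the heavy chain that partners Slc7a5, had probes that disagree, the brighter at -0.17 and the second at 0.81 for blockade over KO IgG. With Slc3a2 taken by its brighter probe, the median log2 change of the 5 for blockade over KO IgG was -0.24, with 0 of 5 above 0. Scaled to the 75th percentile all 5 were above 0, with a median of 0.74, and 0 of 5 were above the median of all bright genes on that scale, 1.09.

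The 6 genes of purine and pyrimidine synthesis were all bright, and none passed in any comparison. Paics, which joins consecutive steps of the purine ring, had log2 levels of 11.21 and 11.37 on the blockade arrays, 10.73 and 10.61 on the KO IgG arrays, and 10.84 and 10.68 on the WT arrays. Blockade arrays lay above all others for Paics, by 0.62 over KO IgG (SE 0.129, adjusted p = 0.0747) and 0.53 over WT (adjusted p = 0.128). For KO IgG over WT this probe was at -0.09. A second bright Paics probe gave 0.29, 0.74 and 0.45 in those comparisons when quantiles were taken over all bright probes. Cad, which carries the first steps of pyrimidine synthesis, had 9.57 and 9.88 on the blockade arrays, 9.72 and 9.78 on the KO IgG arrays, and 9.04 and 9.44 on the WT arrays. The groups labelled Irf4 KO lay above WT for Cad, by 0.51 for KO IgG (adjusted p = 0.178) and 0.48 for blockade (adjusted p = 0.239). Gart, a trifunctional purine enzyme that uses folate-borne carbon, had 8.51 and 8.54 on the blockade arrays, 8.57 and 8.70 on the KO IgG arrays, and 8.14 and 8.29 on the WT arrays. The log2 changes of Gart were 0.42 for KO IgG over WT (adjusted p = 0.132) and 0.31 for blockade over WT (adjusted p = 0.250). Ppat, Atic and Umps, at the entry and end of the purine path and the end of the pyrimidine path, changed by between -0.22 and 0.40. The group's median log2 change was 0.15 for KO IgG over WT, 0.16 for blockade over KO IgG and 0.35 for blockade over WT. Scaled to the 75th percentile the first was -0.78, with 0 of 6 above 0. On that scale 4 of the 6 were above the median of all bright genes, -1.05. Cad stood at -0.41 and Gart at -0.40 there for KO IgG over WT.

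**Figure D2:**
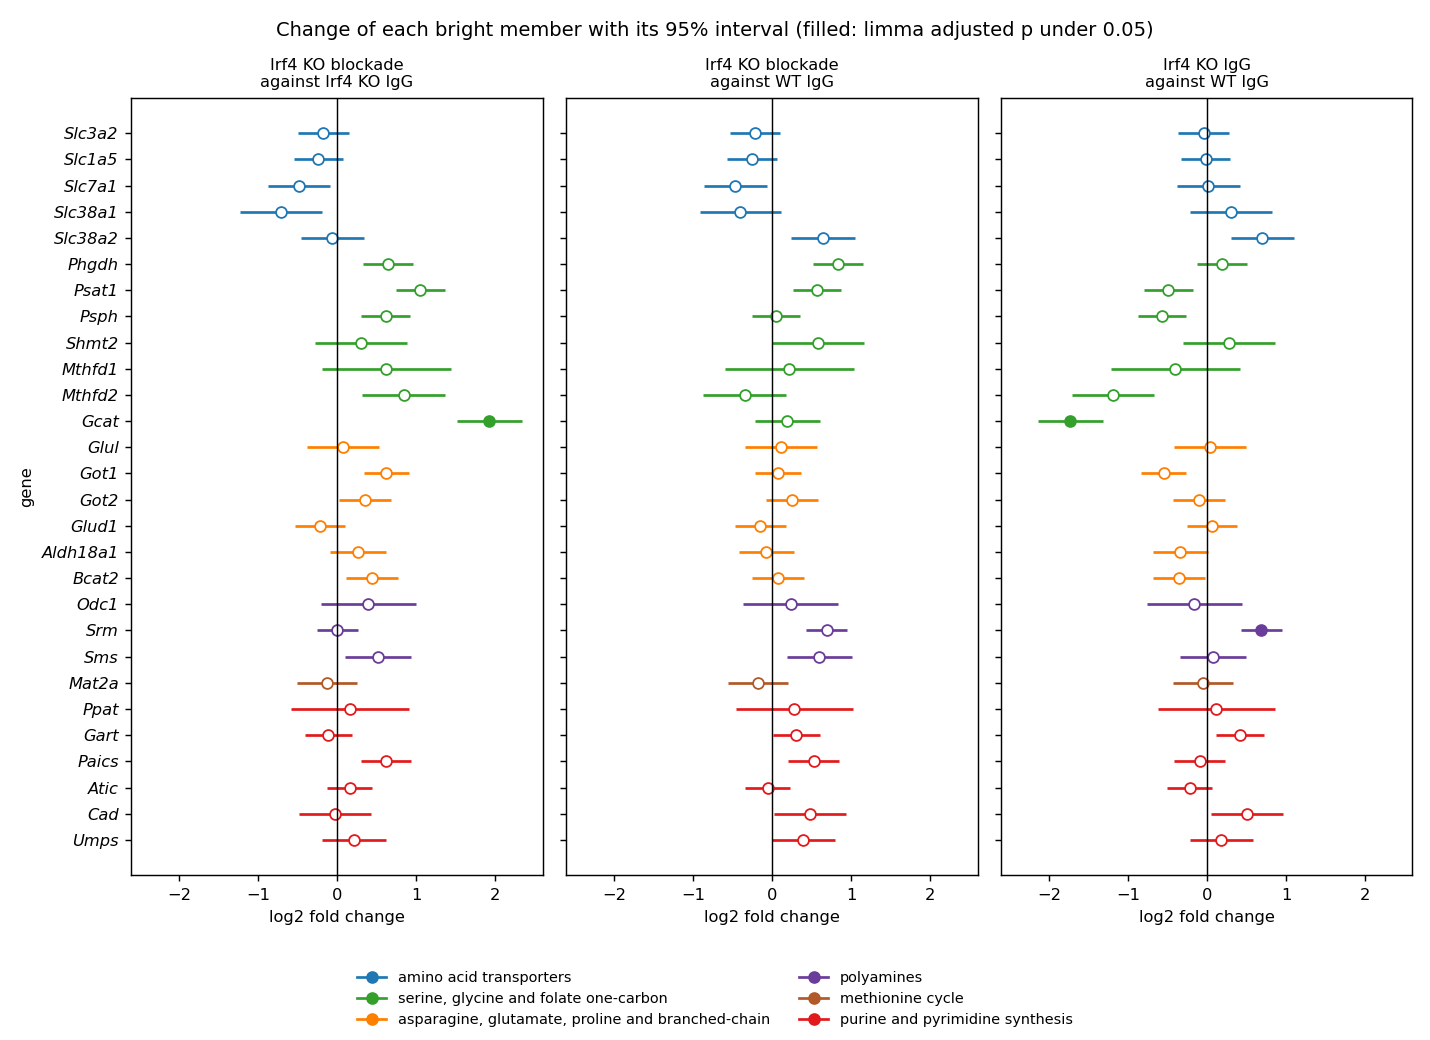
Log2 fold change (horizontal axis) of the 28 bright members, 1 row a gene and coloured by role, in the 3 comparisons, with bars for the 95% interval of the limma fit. Filled points mark the calls, Gcat in both comparisons that involve KO IgG and Srm for KO IgG over WT. For blockade over KO IgG all 7 bright serine, glycine and folate genes lie above 0 and all 5 bright transporters below. Each gene is drawn by its highest-mean probe, and second bright probes of Mthfd1 and Slc3a2 lay on the other side of 0 there. On the 75th percentile scale the transporters lie above 0 too.

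Counted over the module, KO IgG against WT gave 1 member called higher (Srm), where 1.14% of all bright genes were called higher, and 1 called lower (Gcat), where 0.722% were. Blockade against KO IgG gave 1 called higher (Gcat), where 0.186% of bright genes were, and 0 called lower, where 0.14% were. Blockade against WT gave 0 in either direction with limma, where 0.629% of bright genes were called higher and 0.478% lower. At an unadjusted p under 0.05, KO IgG against WT had 4 members higher, against 10.6% of all bright genes, and 6 lower, against 12.8%. Blockade against KO IgG had 10 higher, against 15.5% of all bright genes, and 2 lower, against 13%. Blockade against WT had 8 higher, against 9.83% of all bright genes, and 1 lower, against 9.39%. Both arrays of one group lay above both of the other for 6 members in KO IgG over WT (23.1% of bright genes), 14 in blockade over KO IgG (34%) and 12 in blockade over WT (27.7%). They lay below for 8 members (29.2% of bright genes), 6 (28.9%) and 7 (27.1%). The median log2 change of the 28 members was -0.03 for KO IgG over WT, 0.24 for blockade over KO IgG and 0.21 for blockade over WT. Without blockade array 2 the second was 0.0961 and the third 0.0405, and without WT array 2 the third was 0.0803. The last pair of comparisons share the blockade arrays and the first pair share the KO IgG arrays.

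The 8 dim members were too dim for the fit, and the median intensity of all probes was itself 6.72 and 5.17 on the blockade arrays, 46.5 and 76.6 on the KO IgG arrays, and 7.36 and 9.08 on the WT arrays. Tdh, threonine dehydrogenase, which in mice feeds the substrate of Gcat, read 5.69 and 9.43 on the blockade arrays, 143 and 434 on the KO IgG arrays, and 4.86 and 10.7 on the WT arrays. It was well above background on the KO IgG arrays and on no other. Scaled to each array's 75th percentile, Tdh was at least 5.72-fold higher in KO IgG than in WT cells and at least 4.88-fold lower in blockade than in KO IgG cells, bounds set by the lowest signal well above background on the dim arrays. They are a description without a test, since Tdh was measured in the KO IgG group alone. The B cell and myeloid marker sums were highest on the same arrays, and their part in the Tdh signal was not tested.

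Asns, asparagine synthetase, read 376 and 147 on the blockade arrays, 228 and 792 on the KO IgG arrays, and 49.4 and 97.4 on the WT arrays. Bcat1, the cytosolic branched-chain aminotransferase, read 197 and 138 on the blockade arrays, 301 and 468 on the KO IgG arrays, and 51.0 and 96.1 on the WT arrays. Shmt1, the cytosolic serine hydroxymethyltransferase, read 108 and 119 on the blockade arrays, 124 and 156 on the KO IgG arrays, and 37.5 and 49.5 on the WT arrays. For all 3, both groups labelled Irf4 KO stood above the WT arrays on these brightest probes. On the dimmer probes of Bcat1 and Asns the blockade and WT arrays overlapped, such as Bcat1 at 9.16 and 8.72 against 12.3 and 4.58. A dimmer Shmt1 probe had blockade above WT, at 35.7 and 29.5 against 8.43 and 22.6. When 13838 genes well above background on all 6 arrays were normalised together instead, Bcat1 was higher in KO IgG than in WT cells by 1.78 on the log2 scale (SE 0.185, adjusted p = 0.0283, where 1.22% of these genes were called higher), and the same change was 1.51 for blockade over WT (adjusted p = 0.0731). In that fit Asns was at 1.99 for KO IgG over WT (adjusted p = 0.122) and 2.01 for blockade over WT (adjusted p = 0.223), and Shmt1 at 0.85 (adjusted p = 0.116) and 1.68 (adjusted p = 0.0834).

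Mthfd1l, the mitochondrial formyltetrahydrofolate synthetase, read 261 and 160 on the blockade arrays, 315 and 633 on the KO IgG arrays, and 107 and 221 on the WT arrays, and its mean log2 of 7.91 placed it just below the minimum. Slc7a5, the light chain of the large neutral amino acid carrier, read 22.9 and 22.1 on the blockade arrays, 75.5 and 48.6 on the KO IgG arrays, and 43.9 and 56.4 on the WT arrays, the only dim member lowest on both blockade arrays. Slc7a6, a carrier of cationic and neutral amino acids, read 201 and 140 on the blockade arrays, 266 and 354 on the KO IgG arrays, and 156 and 208 on the WT arrays. Ahcy, which clears S-adenosylhomocysteine, read 105 and 84.4 on the blockade arrays, 104 and 170 on the KO IgG arrays, and 59.7 and 75.6 on the WT arrays. In the fit of genes well above background on all arrays, Mthfd1l, Slc7a6 and Ahcy did not pass. For KO IgG over WT they stood at 0.97, 0.12 and 0.14, and for blockade over KO IgG at -0.28, 0.09 and 0.66. Shmt1 stood at 0.84 for blockade over KO IgG (adjusted p = 0.107). Slc7a5, with 1 blockade array not well above background, was not included.

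**Figure D3:**
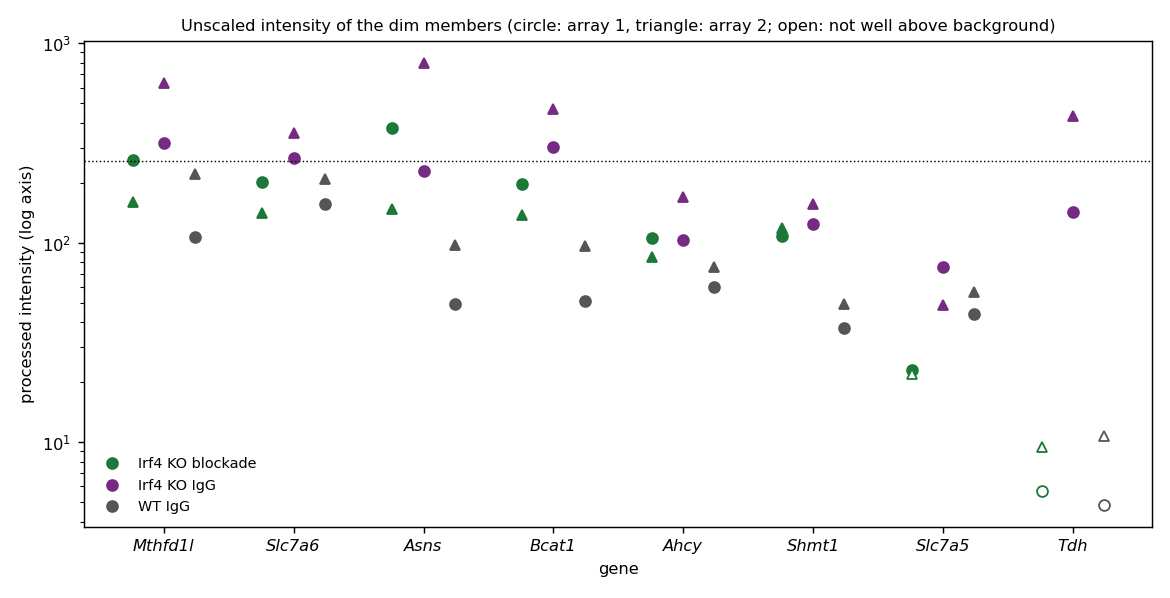
Unscaled processed intensity (vertical log axis) of the 8 dim members on each array, with circles for array 1, triangles for array 2, open points for values not well above background, and a dotted line at the brightness minimum of 256. Tdh is well above background on the KO IgG arrays only, at 143 and 434, and Asns, Bcat1 and Shmt1 are lowest on the WT arrays.

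Other genes of the same pathways, listed by textbook role, passed in no comparison among the folate, glycine, amino acid, polyamine, methionine, purine and pyrimidine lists. The largest median change of these lists was in pyrimidine and deoxynucleotide supply, at 0.87 for blockade over KO IgG. There 9 of 10 bright genes were above 0 and 8 were higher at an unadjusted p under 0.05, where 15.5% of all bright genes were. Tk1, thymidine kinase, had log2 levels of 10.43 and 10.25 on the blockade arrays, 6.76 and 8.36 on the KO IgG arrays, and 8.75 and 9.58 on the WT arrays (2.78 for blockade over KO IgG, adjusted p = 0.0717). Rrm2, the regulatory subunit of ribonucleotide reductase, had 11.40 and 11.34 on the blockade arrays, 8.30 and 9.80 on the KO IgG arrays, and 10.04 and 10.89 on the WT arrays (2.32, adjusted p = 0.0768). Tyms, which makes thymidylate with folate-borne carbon, was on the folate list, where the median was 0.08. It had 11.08 and 11.12 on the blockade arrays, 8.79 and 9.44 on the KO IgG arrays, and 9.84 and 10.25 on the WT arrays (1.98, adjusted p = 0.0536). Blockade arrays were highest for all 3, and the 2 KO IgG arrays lay apart by over 1 log2 unit for Tk1 and Rrm2. Proliferation genes had a median log2 change over 11 bright genes of -1.07 for KO IgG over WT, 1.71 for blockade over KO IgG and 0.99 for blockade over WT, and none of them passed (8 at an unadjusted p under 0.05 for blockade over KO IgG). Their part in the members' values was not tested. Azin1, which shields ornithine decarboxylase from decay, was the closest of the polyamine regulators to the threshold, at -0.83 for KO IgG over WT (adjusted p = 0.0501).

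**Figure D4:**
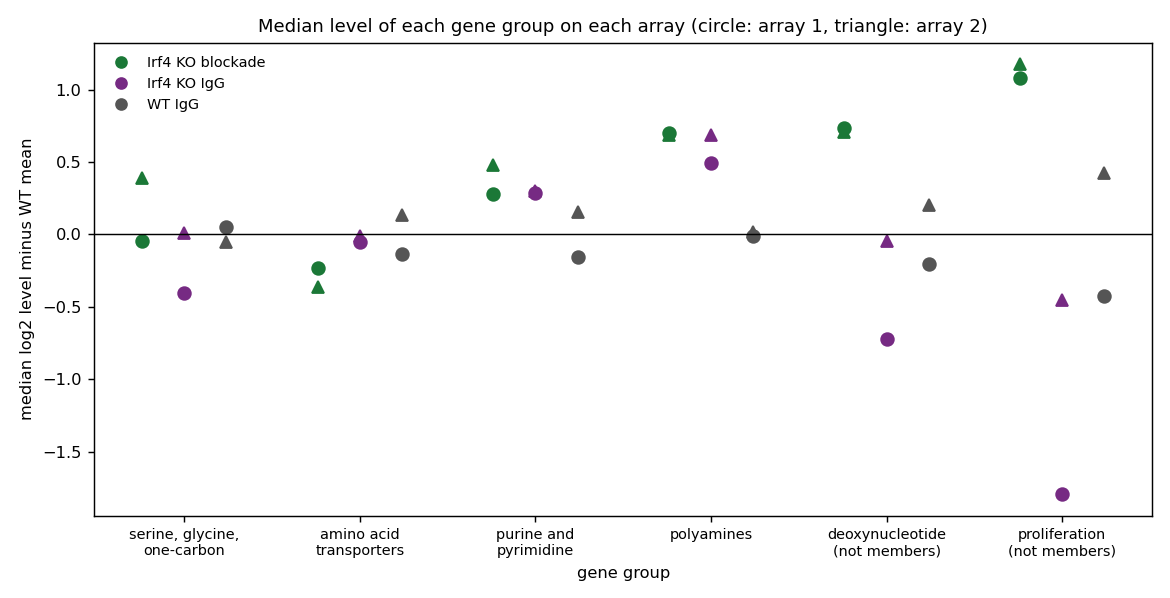
Median log2 level of the bright genes of each group on each array, minus the mean of the WT arrays (vertical axis). Shown are 4 roles of the module, and the pyrimidine and deoxynucleotide list (labelled deoxynucleotide) and proliferation genes, which are not members. The proliferation median lies at 1.08 and 1.17 on the blockade arrays, against -1.79 and -0.45 on the KO IgG arrays. The purine and pyrimidine members lie at 0.28 and 0.48 on the blockade arrays, against 0.28 and 0.30 on the KO IgG arrays.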

How the data were processed

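RNA from sorted TEa T cells was read on 6 one-colour Agilent arrays, 2 in each of 3 groups. The deposited scanner files give a processed signal (intensity) for each spot, background-subtracted by Agilent Feature Extraction 11.0.1.1, per the file headers. Version 9.1 stands in the submitters' processing notes. The deposited series table held the same intensity of each probe divided by 1 constant per array, as checked against the scanner files, and served as an alternative. No column lacked a sample.

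Control spots and outlier flags were left out (1234 of 56605 probes had no usable spot), spots of a probe were averaged as log2, and probes were named through RefSeq accessions (58.3% of probes). The highest-mean probe stood for a gene. Genes with a mean log2 of at least 8 were quantile-normalised among themselves and fitted with limma 3.58.1 (R 4.3.3) on all 6 arrays, leaving 3 residual degrees of freedom. P-values were adjusted by Benjamini-Hochberg over 8582 genes, with a threshold of 0.05. The fit was tested on simulated data. Levels of different probes are not comparable with each other.

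All members are accounted for: those called are given with all values, as are up to 3 others of each role with the smallest adjusted p, and the rest by range. The members, gene lists and tests were chosen with earlier results of these data known. The replicate numbers did not pair the arrays, since deviations of same-numbered arrays correlated by 0.02, -0.20 and 0.03 between groups. Alternatives covered scaling, background correction, filters, probe choice, blocks and each array left out. The Irf4 label could not be checked by its probes.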

Additional observations from a re-analysis of the deposited data

How the results depend on the processing

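With 2 arrays a group, calls near the threshold moved with the processing. For KO IgG against WT, the main count was 2 members, where 1.86% of bright genes were called. It became 23 of 36 in the all-gene fit, which changed both the scale (75th percentile of each array) and the filter. There 2 were higher and 21 lower, 58.9% of its 28249 genes were called and the median bright gene stood at -1.05. The count became 1 with normexp (1.78% of genes called), with a mean log2 minimum of 9 (1.43%, no Gcat value) and with the mean of all bright probes (1.88%). The slide row as a block (added after seeing the data) also gave 1, with 1.03% of genes called. The count became 0 with the 4 arrays compared only (0.0699% of genes called) or with the replicate block (0.268%). Fits with an array left out hold 1 array in a group, so their counts are not given. The members' median became -0.14 with bright-gene medians, -0.93 in the all-gene fit (-1.13 over the same 28 genes), 0.0335 with genes well above background on all 6 arrays and 0.0343 with the mean of all bright probes. For blockade against KO IgG, the main count of 1 became 4 with bright-gene medians (Phgdh, Psat1, Gcat and Paics). The share of bright genes called was 7.34% there in place of 0.326%. The count became 28 of 36 in the all-gene fit (27 higher, 1 lower, with 58.8% of its genes called and a median bright gene of 1.09). It became 2 (Psat1 and Gcat) with normexp (0.653% of genes called) and with genes well above background on all arrays (1.17%). With the slide row as a block it was 0, where 0% of bright genes were called. The median became 1.12 in the all-gene fit (1.23 over the same 28 genes) and ranged from 0.10 to 0.34 with an array left out. The all-gene counts include Tdh, as 1 of the 2 higher for KO IgG over WT and the 1 lower for blockade over KO IgG. Tdh entered that fit only because it was well above background on the KO IgG arrays, so its calls followed from the filter and are no test. For blockade against WT, the main count was 0, where 1.11% of bright genes were called. It became 1 with bright-gene medians (1.57% of genes called), normexp (1.24%) or a minimum of 7 (0.629%). With cyclic loess (1.51%) or a minimum of 9 (1.31%) it became 2, Phgdh and Srm in both. The median became 0.28 in the all-gene fit and ranged from 0.0405 to 0.252 with an array left out.

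Gcat was past the threshold in 12 of 18 settings for KO IgG over WT (adjusted p between 0.00593 and 0.113) and in 13 of 18 for blockade over KO IgG (between 0.00571 and 0.349), reversed in none. Srm passed in 6 of 19 and turned to -0.36 in the all-gene fit. The members not called changed sign in at most 5 of 26, 3 of 27 and 2 of 28 cases in any setting other than the all-gene fit. The replicate block gave 0, 1 and 0 called members in the 3 comparisons, where 0.268%, 0.35% and 0.629% of bright genes were called. A block for slides was not run, since all arrays shared 1 slide. The causes were not tested, other than that leaving out arrays leaves fewer to estimate the spread.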

Other observations

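Genes that sense amino acid supply or set growth were listed beside the module. Sesn1, a sestrin that restrains mTORC1, had log2 levels of 12.10 and 12.39 on the blockade arrays, 12.32 and 12.07 on the KO IgG arrays, and 10.78 and 10.79 on the WT arrays. It was higher than in WT by 1.46 in blockade cells (limma adjusted p = 0.0247) and by 1.41 in KO IgG cells (adjusted p = 0.0243), and it was the 1 called gene among the 8 bright growth regulators in both comparisons. In the fit of all genes above background, scaled to each array's 75th percentile, the Sesn1 call for KO IgG over WT did not remain (0.26, adjusted p = 0.445). Blockade over WT stood at 1.56 there (adjusted p = 0.291). That fit called 0 of its 28249 genes for blockade against WT, so it cannot decide that call. Mxd4, a partner of Max that competes with Myc, had 9.06 and 9.22 on the blockade arrays, 8.28 and 8.55 on the KO IgG arrays, and 8.34 and 8.36 on the WT arrays, and did not pass (0.73 for blockade over KO IgG, adjusted p = 0.0716). Myc itself read 8.39 and 9.14 on the blockade arrays, 7.99 and 8.83 on the KO IgG arrays, and 8.23 and 8.42 on the WT arrays, with all groups overlapping.

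None of the 5 bright genes of the amino acid stress response passed. Atf4, its central factor, had log2 levels of 11.90 and 11.16 on the blockade arrays, 12.03 and 12.56 on the KO IgG arrays, and 11.61 and 12.16 on the WT arrays, and its log2 change for blockade over KO IgG was -0.76 (adjusted p = 0.199). The list's median log2 change was 0.01 for KO IgG over WT, -0.16 for blockade over KO IgG and -0.17 for blockade over WT.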
